A study of Homo sapiens with 12 samples.

Results

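SOX2 was silenced in 2102Ep, a line of human embryonal carcinoma cells that keep many traits of pluripotent stem cells. By the study's account these cells resist differentiation by retinoic acid. Growth at low density or silencing of SOX2 and OCT4 can still make them differentiate. The comparison covered 6 of the 12 arrays of the series, chosen by their titles: 3 of 2102Ep cells that received an siRNA against SOX2 (siSOX2) and 3 of 2102Ep cells that received the Ambion Silencer Select Negative Control #1 siRNA. Cells at passage 35 to 50 were seeded 24 hours ahead, exposed to siRNA and Lipofectamine 2000 for 6 hours and grown for 72 hours with fresh medium daily, so every control was transfected too. The other 6 arrays were the same comparison in a second embryonal carcinoma line, NTera-2, transfected with Lipofectamine RNAiMAX. The study gives a higher siRNA dose for NTera-2, and the passage range of that line started later. RNA was measured on the Affymetrix Human Gene 1.0 ST array. All values are log2 signals, so a difference of 1 is 2-fold, and a level can be compared between arrays for 1 gene but not between genes. The replicates are labelled as biological, but nothing says that they were separate cultures, so the p-values measure the spread between these arrays. A single siRNA was used and SOX2 was not restored, so loss of SOX2 and any other action of this siRNA cannot be told apart. RNA came from whole cultures, in which fewer cells of a kind and less RNA per cell cannot be told apart either.

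SOX2 is a transcription factor that binds DNA beside the POU factor OCT4 at many genes of the undifferentiated state. In pluripotent cells it is known to hold back mesoderm and endoderm, while in the embryo it stays on in neural tissue. Wnt, BMP and Nodal signals are the known inducers of the primitive streak, the region where mesoderm and endoderm form.

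Of the marker genes of embryonal carcinoma, 12 were measured by a probe set of 1 gene. Their mean control signals ran from 9.05 (TNFRSF8, or CD30) to 13.18 (GDF3), which is a rough check of the label, since the brightness of probe sets differs. NANOG and POU5F1 had no such probe set here. Of 15 leukocyte and 12 fibroblast markers none was called, and their median control signals were 6.63 and 7.46. Of these, 10 leukocyte and 7 fibroblast markers lay below the median gene. LCP1 of the leukocyte list was bright, at 11.12 in control and 11.38 in siSOX2 arrays, so it weighs heavily in the sum of that list. The log2 of the summed signal ran from 11.90 to 12.20 in control and 12.24 to 12.27 in siSOX2 arrays for the leukocyte list, and from 12.03 to 12.23 and 11.94 to 12.12 for the fibroblast list.

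The control arrays were less alike than the siSOX2 arrays. Between control replicates 2 and 3, 196 genes differed at least 2-fold, against 44 and 34 for the pairs with replicate 1 and 6 to 9 for pairs of siSOX2 arrays. The first principal component of the 6 arrays (57.4% of the variance) split the siRNAs, and the second (21.1%) set control replicate 2 at -22.61 and control replicate 3 at 24.24. The total counts, and list counts that move by over 1.5 times, are therefore also given without these controls.

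In 2102Ep cells siSOX2 removed most SOX2 signal. It was 12.28, 12.21 and 12.20 on the control arrays and 9.17, 9.30 and 8.80 on the siSOX2 arrays. The groups did not overlap, and siSOX2 replicate 3 was the lowest array. The remaining signal was 11.4% of control. A gene was called when its Benjamini-Hochberg adjusted p (limma) was 0.05 or less and its change at least 2-fold. By this rule 212 genes rose (1.15% of 18404) and 152 fell (0.826%), together 1.98%. Without control replicates 2 and 3, a comparison added after seeing the data that leaves 1 control array, 197 rose and 199 fell.

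Rises were larger than falls. A change of at least 4-fold was seen in 49 genes that rose and 14 that fell, at least 8-fold in 14 and 1, and at least 16-fold in 4 and 0. The genes that rose had a median of 7.49 in control cells and 9.25 after siSOX2, and 23 of the 212 were among the brightest 4600 genes. The genes that fell had a median control signal of 9.65, and 86 of the 152 were among those 4600. These signals also depend on the probe set. The part of signal level in the balance of rises and falls was not tested. Just inside the 2-fold limit stood AMER1 (1.0054), NID1 and FBN2 among rises and WDHD1 (-1.0042), DPF1 and GABRQ among falls. Just outside stood B4GALT1 (0.9989), MIR9-1 and ANTXR1, and PAPSS2 (-0.9995), FAM162A and ZNF578. The check with 1 array left out covered the called genes picked by the naming rules given at the end. Beside those whose paragraphs give it, the ones printed here that were then under 2-fold were AMER1 (smallest change 0.7787), CRIPTO (-0.9228), DPF1 (-0.9368), GABRQ (-0.9073), EPHA7 (-0.8665), ERVW-1 (-0.9920), HELLS (-0.9309), SP8 (-0.9963), TGFBR3 (0.9372), TIMP4 (-0.9015), TUBE1 (-0.9282) and WDHD1 (-0.9324). Called members printed only as examples, such as ID3 and BMP4, were not checked singly and may also drop under 2-fold.

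**Figure D1:**
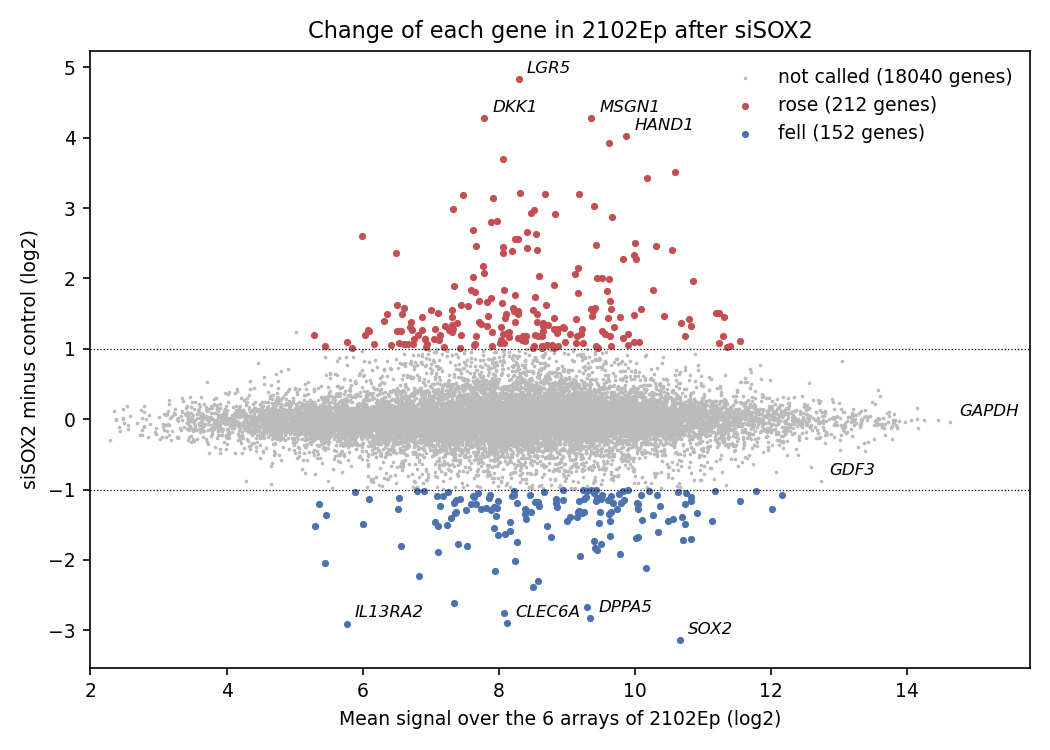
Change after siSOX2 (vertical axis, log2) against mean signal over the 6 arrays (horizontal axis, log2) for 18404 genes, with the 212 that rose in red and the 152 that fell in blue. Dotted lines mark 2-fold. The rises reach 4.84 (LGR5), while the falls end at -3.14 (SOX2).

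Genes are described below by role. The 34 lists used were put together with earlier calls from these arrays known, and 219 of the 364 called genes are on one. A list's share of called genes is therefore raised by that choice, and the counts describe the list and test nothing. They stand beside the shares over all genes given above and a median change over all genes of -0.01. Some genes are on several lists, so the counts of different lists are not separate observations. MSX2 and DLX3, for example, count among both the BMP and the trophoblast and amnion genes, and CER1 among both streak and endoderm genes.

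Of 42 factors of the primitive streak and early mesoderm 14 rose, 0 fell and 28 were not called, and the changes ran from -0.39 to 4.28 with a median of 0.65. MSGN1, which drives presomitic mesoderm, stood at 7.17, 7.04 and 7.42 on the control arrays and at 11.60, 11.57 and 11.31 on the siSOX2 arrays. HAND1, a factor of lateral mesoderm and extraembryonic tissue, went from 7.91, 7.85 and 7.83 to 11.90, 11.81 and 11.95. Neither gene had a control array within 3 log2 units of any siSOX2 array. Further rises were those of the T-box genes TBX3 (2.50), TBX22 (2.47) and EOMES (2.06), of LHX1 (1.91), and of EVX1 and CDX2 (1.17), homeobox genes of the posterior embryo. The brightest members that were not called stayed close to control: NKX2-5 changed by 0.21, DLL3 by 0.07 and the VEGF receptor gene KDR by -0.14. Without control replicates 2 and 3 the list held 15 rises.

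**Figure D2:**
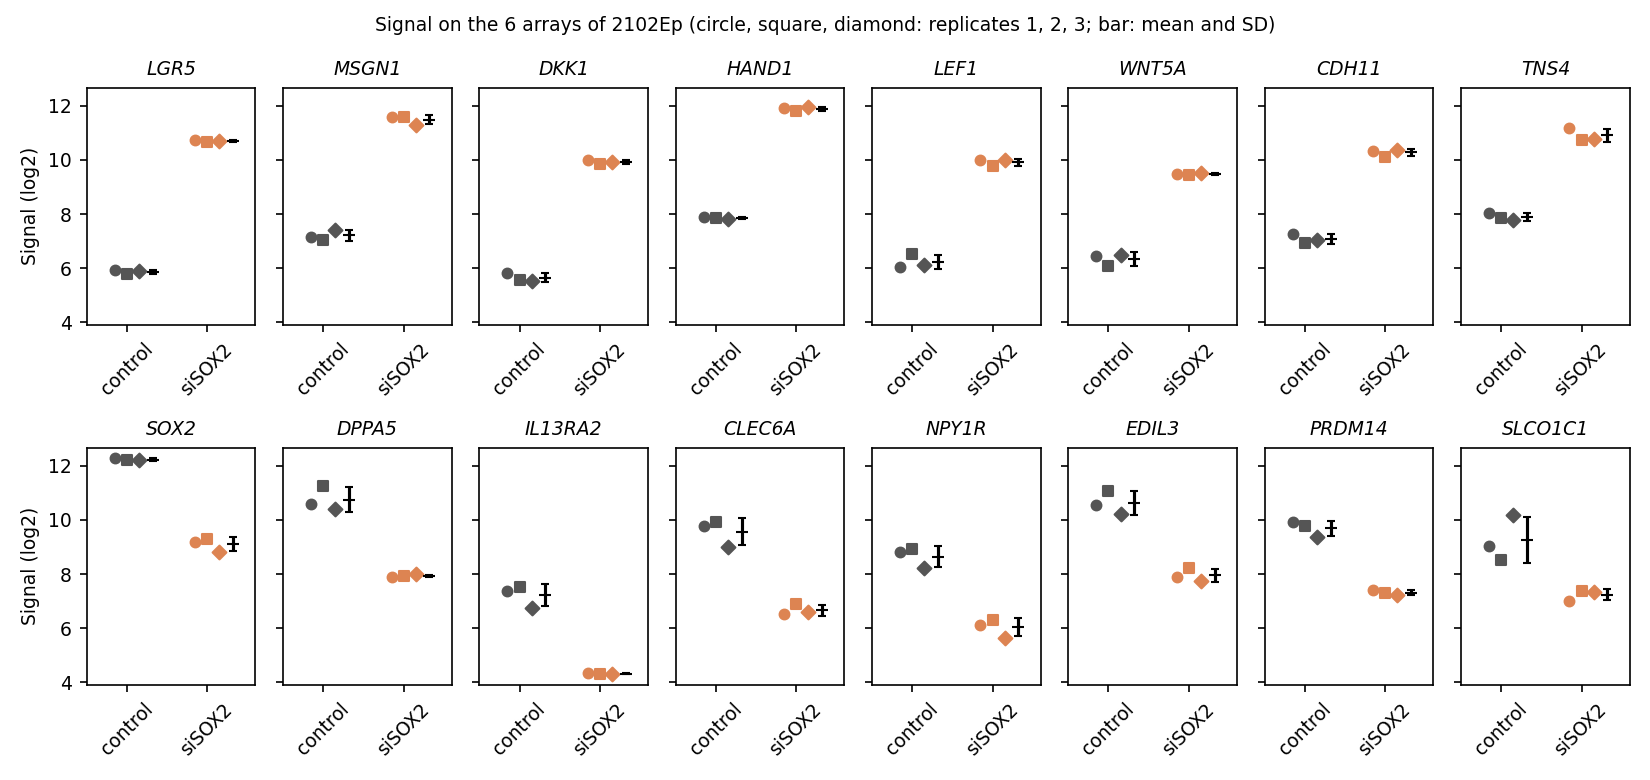
Signal (vertical axis, log2) of 16 genes on each array of 2102Ep, with the mean and SD of 3 arrays as a bar. In the upper row all siSOX2 arrays lie above the controls, and in the lower row all lie below. Each of the 212 rises and 152 falls is separated in this way, as are 25.2% of all genes. SLCO1C1 shows the widest controls, from 8.52 to 10.19.

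Called genes of the Wnt pathway included ligands, receptors and targets. Wnt proteins need WLS to leave the cell and act through Frizzled receptors, and beta-catenin (CTNNB1) then works with TCF and LEF factors in the nucleus. Among 25 ligands and release factors 4 rose and 0 fell. WNT5A stood at 6.46, 6.06 and 6.49 in control cells and at 9.47, 9.45 and 9.52 after siSOX2, a change of 3.14 ± 0.113 (SE; limma adjusted p = 5.03e-12). WNT8A, a ligand of the streak, rose by 2.44, WLS by 2.88 and RSPO3, which strengthens Wnt signals through LGR receptors, by 1.62. The brightest ligand, WNT3, changed by 0.51 and was not called.

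Of 23 Wnt receptors 2 rose and 1 fell. The R-spondin receptor LGR5 had the largest rise of all genes, from 5.92, 5.78 and 5.91 to 10.74, 10.67 and 10.72, a 28.6-fold change. The Frizzled genes split: FZD2 rose by 1.53 ± 0.0959 (SE), while FZD7, the Frizzled known from undifferentiated stem cells, fell by 1.05 ± 0.127 on the log2 scale. Control replicate 2 had the lowest FZD7 signal of the controls (9.64, against 10.08 and 10.05). FZD7 was under 2-fold without control replicate 1 (-0.9692) or 3 (-0.9845).

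Among 35 effectors, inhibitors and feedback targets 7 rose and 4 fell. The nuclear factors moved apart. LEF1 went from 6.03, 6.51 and 6.10 to 9.98, 9.77 and 10.01, whereas TCF7L1, a TCF that mostly represses in stem cells, went from 11.48, 11.14 and 11.84 to 10.12, 10.06 and 9.81. The rises included the feedback inhibitors DKK1 (4.27) and NKD1 (2.28) and the target SP5 (1.31). FRAT2, which restrains the kinase GSK3, fell by 1.34, SHISA3, which keeps Frizzled inside the cell, by 1.46, and SP8 by 1.10. CTNNB1 itself changed by 0.19 (adjusted p = 0.36). Without control replicates 2 and 3, 5 members rose and 4 fell.

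Of 28 BMP genes 9 rose and none fell, at a median of 0.49. The ligand BMP2 went from 7.39, 7.21 and 7.49 to 10.33, 10.13 and 10.38, and BMP4 rose by 1.16. The direct targets ID1 (1.18), ID2 (1.83) and ID3 (1.03), which block helix-loop-helix factors, rose too, as did the secreted modulator BMPER (1.61) and the decoy receptor BAMBI (1.36). ID2 was uneven in control cells, at 9.51, 9.66 and 8.89. The receptor BMPR2 (0.38) and the transducers SMAD5 (0.42) and SMAD6 (0.43) were not called.

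Of 25 Nodal and TGF-beta genes 2 rose and 1 fell. TGFB1 stood at 8.48, 8.41 and 8.44 on the control arrays and at 10.49, 10.39 and 10.45 on the siSOX2 arrays with no overlap. TGFBR3, a co-receptor, rose by 1.04. CRIPTO, the Nodal co-receptor, had some of the widest arrays, 12.33, 12.60 and 11.44 against 10.55, 11.23 and 11.10, and control replicate 3 was the one nearest to the siSOX2 arrays.

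FGF signalling did not move one way. Among 33 genes 2 were called up and 3 down, and the median was -0.20. The receptor FGFR3 went from 10.89, 10.34 and 10.71 to 9.55, 9.43 and 9.36. The ligand FGF16 fell by 1.33 and ETV1, an ETS factor switched on by ERK, by 1.15. The related ETV5 (-0.96) and ETV4 (-0.69) passed the adjusted p but not 2-fold. DUSP6, a phosphatase that turns ERK off, was higher at 8.44, 8.54 and 8.89 than its controls at 7.32, 7.54 and 7.77, yet under 2-fold without control replicate 1 (0.9691) or siSOX2 replicate 3 (0.9465).

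**Figure D3:**
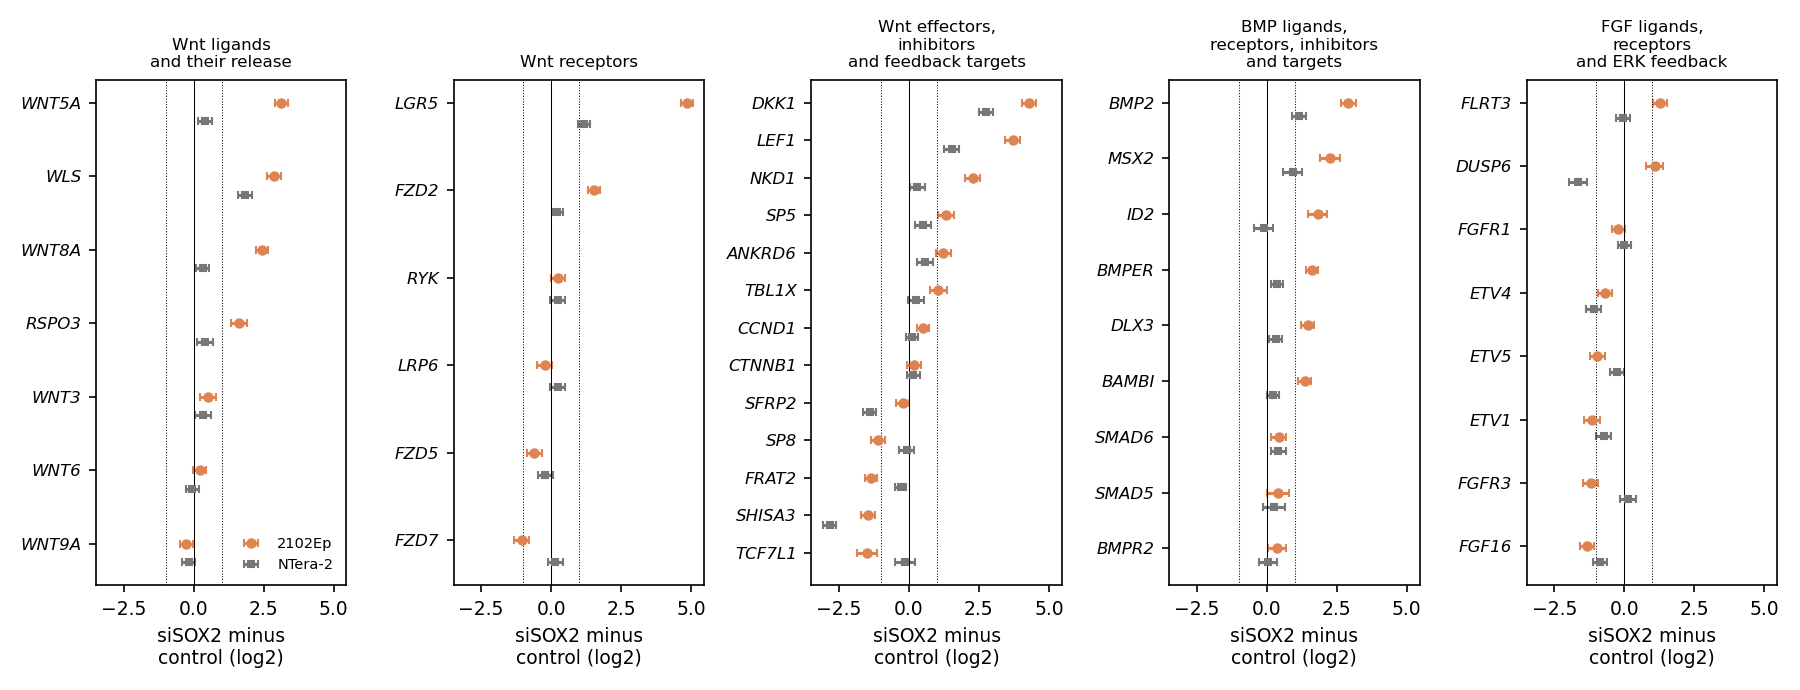
Change after siSOX2 (horizontal axis, log2, with 95% interval from limma) of named members of 5 pathway lists in 2102Ep (orange circles) and NTera-2 (grey squares). In 2102Ep, WNT5A, LGR5, DKK1 and BMP2 head 4 of the lists, while the FGF list runs from FLRT3 at 1.28 to FGF16 at -1.33.

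Short motifs known for TCF and LEF, SOX and POU factors were looked for upstream of the called genes. RefSeq promoters (GRCh38.p14) were matched for 14230 genes, of which 165 rose and 116 fell, and the 250 bases before the start site were read on both strands. CTTTGAT, the TCF and LEF core, was found in 1.79% of all promoters, 1.82% of those that rose (3 genes) and 2.59% of those that fell (3 genes). CATTGTT, a SOX core, was in 1.90% of all, 1.82% of rises and 3.45% of falls, and another SOX form, CTTTGTT, in 3.47%, 3.03% and 0.862%. The octamer ATGCAAAT was in 1.57%, 2.42% and 4.31%, the last being 5 genes. These shares rest on few genes and show no more than where the letters lie. The stretches around the TCF and LEF core of the 3 genes that rose are printed because HAND1 and MIXL1 are among the 15 largest rises, and that of PIM2, a gene that fell, because it holds the octamer on both strands. Capitals mark the motif, and each stretch is written along its gene's strand.

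HAND1 (chr5:154478237-154478303, minus strand): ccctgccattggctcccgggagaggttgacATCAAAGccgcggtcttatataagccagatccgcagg

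MIXL1 (chr1:226223558-226223624, plus strand): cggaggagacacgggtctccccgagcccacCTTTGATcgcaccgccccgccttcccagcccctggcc

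SP5 (chr2:170715198-170715264, plus strand): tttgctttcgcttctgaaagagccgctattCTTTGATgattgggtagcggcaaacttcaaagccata

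PIM2 (chrX:48919110-48919214, minus strand): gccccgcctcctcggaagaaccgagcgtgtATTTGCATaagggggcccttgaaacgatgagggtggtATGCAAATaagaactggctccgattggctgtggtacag

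The last motif letter lies 39 bases before the start site in HAND1, 69 in MIXL1, 102 in SP5 and 115 in PIM2. All 4 lie upstream of the annotated transcript. PIM2 also holds the TCF and LEF core, 58 bases before its start site and outside the stretch printed. Beside PIM2, the genes that fell with this core were FAM162B and SHC3. LGR5, APLNR, SNAI2, CDH11, TNS4, BMP2, PRDM14 and USP44 had no promoter entry.

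Of 43 pluripotency regulators 14 fell and 0 rose, and the median was -0.57. DPPA5, a marker of pluripotent cells, went from 10.60, 11.27 and 10.39 to 7.89, 7.91 and 7.99. PRDM14, which represses differentiation genes, went from 9.92, 9.77 and 9.38 to 7.41, 7.31 and 7.22. In both genes the groups lay far apart, and in PRDM14 control replicate 3 was the lowest control. Next were HESX1 (-2.23), the nuclear receptor NR5A2 (-1.74), the surface marker CD24 (-1.72), KLF4 (-1.38), VENTX (-1.32), TFCP2L1 (-1.14) and TERF1, which coats telomeres (-1.02). The brightest members that were not called were lower by less than 2-fold. GDF3 stood at 13.19, 13.25 and 13.09 against 12.29, 12.34 and 12.26, a change of -0.88 (limma adjusted p = 2.2e-05) that left 54.3% of its signal. PHC1 changed by -0.68 and DPPA3 by -0.44. LIN28A (0.02), PODXL (0.10) and SALL4 (0.07) did not pass the adjusted p. In all, 31 of the 43 members passed the adjusted p downwards, which 5.90% of all genes did, and 1 passed it upwards. Of 40 germ cell and meiosis genes 3 fell, HORMAD1 (-1.44), TRIML2 (-1.19) and DDX43 (-1.11), and 0 rose.

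Factors of trophoblast and amnion rose, 9 of 28, and the envelope gene ERVW-1 fell. TFAP2A stood at 7.12, 7.23 and 7.22 on the control arrays and at 9.65, 9.56 and 9.67 on the siSOX2 arrays. VGLL1, a partner of TEAD factors, rose by 2.08, GATA3 by 2.15, TEAD1 by 1.63 and GATA2 by 1.33. TFAP2C, bright in control cells, changed by -0.63. In the endoderm list of 21 the called genes were GATA6 (1.28), APOA2 (2.56) and CER1, all up, at a list median of 0.02.

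Genes of neuronal synapses and excitability mostly fell among those called. Of 53 measured, 19 fell and 7 rose, although the list median was only -0.14. The neuropeptide receptor NPY1R went from 8.81, 8.91 and 8.21 to 6.13, 6.31 and 5.65, with control replicate 3 and siSOX2 replicate 3 lowest in their groups. LHFPL4, which helps place GABA receptors, fell by 1.86, the membrane protein GPM6B by 1.84, the calcium release channel RYR3 by 1.75, RGS4, which shortens G protein signals, by 1.69, and the AMPA receptor subunit GRIA1 by 1.51. The enzymes that make GABA moved in opposite directions: GAD2 fell by 1.46, while GAD1 rose from 7.23, 7.55 and 7.34 to 8.96, 8.89 and 8.61. Neurotensin (NTS, 1.46) and the dendritic protein MAP2 rose as well, MAP2 to under 2-fold without control replicates 2 and 3 (0.8817). The falls numbered 14 to 19 when each array was left out in turn. Factors of the neural plate and crest were mostly not called, with 1 rise (SNAI2, 3.22) and 2 falls (HESX1 and EDNRB, -1.23) among 34.

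The mesenchymal and epithelial genes that were called all rose. Of 22 EMT factors and mesenchymal markers 7 rose and 0 fell. The study named several of them from these same samples, so their direction is not independent evidence. CDH11 went from 7.27, 6.93 and 7.05 to 10.34, 10.11 and 10.38, and CDH2 (N-cadherin) from 8.59, 8.49 and 8.25 to 9.68, 9.62 and 9.68. Vimentin (VIM, 0.29) and SPARC (0.09) were not called, nor was the surface protein THY1 (-0.61). ZEB2 rose by 1.14 in the probe set used and by 0.05 in its other probe set, so its rise is uncertain. Of 42 epithelial genes 8 rose and 0 fell. TNS4, a tensin at adhesion sites, went from 8.04, 7.84 and 7.76 to 11.19, 10.74 and 10.79. RAB25 rose by 1.84, KRT23 by 1.49 and GRHL2, an activator of epithelial genes, by 1.38. E-cadherin (CDH1) stood at 11.53, 11.09 and 11.37 in control cells and at 12.10, 12.12 and 11.91 after siSOX2, a change of 0.71 that passed the adjusted p (0.00363) but not 2-fold, and EPCAM changed by -0.26. FAT4, a giant cadherin, fell by 1.26.

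Adhesion and matrix genes changed in parts. Of 28 integrins and laminins 3 rose, ITGA5 (1.82), ITGAV (1.29) and ITGB8 (1.18), and ITGA6, an integrin of undifferentiated cells, fell by 1.01. Its fall was under 2-fold without control replicate 2 (-0.9402), siSOX2 replicate 3 (-0.9294) or control replicates 2 and 3 together (ITGA6 at -0.9717). ITGB1, the common partner subunit, changed by 0.05. Of 62 collagens and other matrix proteins 6 rose and 4 fell. Fibromodulin (FMOD) went from 6.25, 6.25 and 6.32 to 9.05, 8.79 and 9.05, and the integrin ligand EDIL3 from 10.56, 11.08 and 10.21 to 7.89, 8.23 and 7.75. NID1, FBN2 and FRAS1 stood at 1.01 to 1.02 and were under 2-fold without control replicate 2 (0.7688 to 0.8682). The rises of this list numbered 3 to 7 without 1 array, 4 without control replicates 2 and 3, and 3 to 6 under other scalings. Of 47 proteases and inhibitors 9 rose and 2 fell. The gelatinase MMP2 rose by 1.96, ADAMTS9 by 2.36 and the calpain CAPN2 by 2.03. The inhibitors SLPI, from 6.63, 6.65 and 6.42 to 9.31, 9.12 and 9.71, and CST1 (2.33 ± 0.249, SE) rose beside them, while SERPINF1 (-1.32) and TIMP4 (-1.01) fell.

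Of 47 actin, sarcomere and YAP-TEAD genes 15 rose and 0 fell, with a median of 0.50. ANKRD1, a target of YAP and TEAD also found in heart muscle, went from 7.14, 7.34 and 6.76 to 9.30, 10.06 and 9.88. MYOCD, the coactivator of smooth and heart muscle genes, rose by 1.81, the filament capping protein TMOD1 by 1.77, AMOT, which holds YAP back, by 1.73, the cardiac actin ACTC1 by 1.66 and the atrial light chain MYL4 by 1.55. SRF (0.39) and TEAD4 (-0.24), both bright, were not called. Of 65 axon guidance genes 5 rose, among them PRTG (3.20), PLXNA2 (2.02) and the neuropilins NRP2 (1.58) and NRP1 (1.33), and EPHA7 fell (-1.02).

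**Figure D4:**
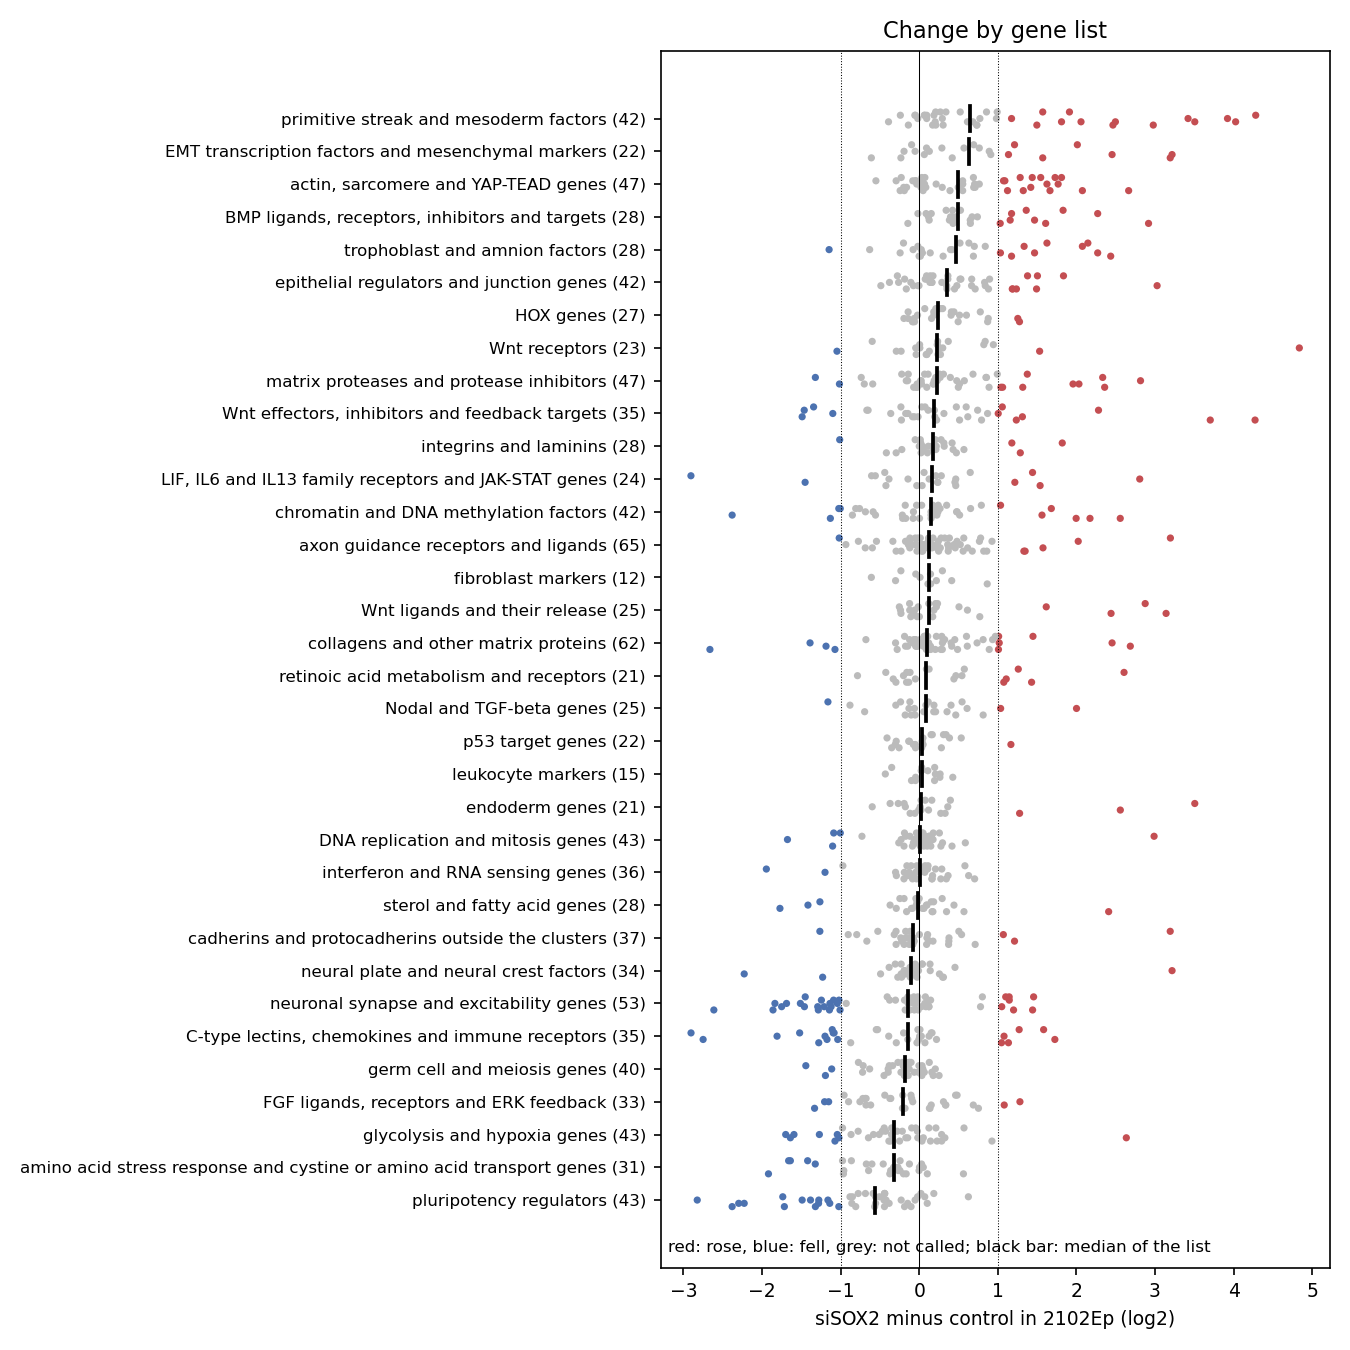
Change after siSOX2 (horizontal axis, log2) of each measured gene of 34 lists (vertical axis, number measured in brackets), red where it rose and blue where it fell, with the list median as a black bar. Medians run from 0.65 for primitive streak and mesoderm factors to -0.57 for pluripotency regulators. The 19 blue points of the synapse list lie beside a bulk of genes near 0.

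Cytokine receptors of the same ligand moved in opposite directions. IL13RA1, which signals for interleukin-13, went from 6.57, 6.64 and 6.26 to 9.25, 9.29 and 9.34, and IL13RA2, its decoy, from 7.39, 7.52 and 6.75 to 4.33, 4.30 and 4.31. Receptors of the LIF family rose, LIFR by 1.54, IL6ST (gp130) by 1.22 and CNTFR by 1.44, while STAT3 changed by -0.61 and the kinase PIM2 fell by 1.45. In the wider list of C-type lectins, chemokines and immune receptors 6 of 35 rose and 11 fell, although no leukocyte marker was called. CLEC6A went from 9.76, 9.93 and 9.01 to 6.51, 6.89 and 6.59 and CLEC4D from 9.48, 9.54 and 9.34 to 6.68, 6.86 and 6.58. The complement protease C1R (9.51, 9.46 and 9.44 against 7.95, 7.95 and 7.94) was lower on every siSOX2 array and varied little within either group. Among 36 interferon and RNA sensing genes SAMHD1, which depletes nucleotides (-1.95), and TLR4 (-1.20) fell and none rose.

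Of 21 genes of retinoic acid metabolism and its receptors 5 rose and 0 fell, and 3 rose without control replicates 2 and 3. CYP26A1, which degrades retinoic acid, went from 6.21, 6.26 and 6.24 to 7.52, 7.39 and 7.58, and CRABP2, which carries it to the nucleus, from 10.08, 10.25 and 9.92 to 11.57, 11.42 and 11.55. The vitamin D enzyme CYP24A1, counted on the same list, rose from 4.38, 4.79 and 4.91 to 7.31, 7.34 and 7.23. RARG (1.11) was under 2-fold without control replicate 2 alone (0.9163) and NRIP1 (1.08) without control replicate 3 alone (0.9091). Of 27 HOX genes 2 rose, HOXA2 (1.28) and HOXB6 (1.25).

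Chromatin factors were called in both directions, 6 up and 4 down of 42. The remodeller CHD7 went from 6.94, 6.42 and 6.67 to 9.02, 8.74 and 8.79, and MED12, of the Mediator kinase module, from 8.88, 8.33 and 8.65 to 10.66, 10.63 and 10.56. The histone variant genes MACROH2A1, from 8.66, 8.99 and 8.71 to 10.37, 10.46 and 10.57, and MACROH2A2 (1.04), found on silent chromatin, both rose, the latter to under 2-fold without control replicate 2 (0.9988). USP3, which removes ubiquitin from histones, rose by 2.56. The histone demethylase KDM4C fell by 1.13 and the remodeller HELLS by 1.02. DNMT3B (-0.56) was not called. The falls numbered 2 to 4 without 1 array and 7 without control replicates 2 and 3.

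Metabolic genes mostly fell among those called. In the glycolysis and hypoxia list of 43, 7 were down and 1 up, and the median was -0.32. BNIP3, a mitochondrial protein induced by low oxygen, went from 12.56, 12.97 and 12.43 to 11.32, 11.43 and 11.40, and the muscle phosphorylase PYGM fell by 1.59. AK4 fell by 1.70 in the probe set used and by 0.62 in the other, so its size is uncertain. Among glycolytic enzymes, ALDOC fell by 1.04 but was under 2-fold without control replicate 1 (-0.9245) or 2 (-0.9870), while GAPDH (14.74, 14.64 and 14.59 against 14.59, 14.66 and 14.59) and ENO1 (-0.02) were not called. The adjusted p alone was passed by 18 members downwards and 4 upwards, and by 5.90% and 6.76% of all genes. CA12, a carbonic anhydrase, rose by 2.64. The falls numbered 4 to 7 without 1 array. Of 31 amino acid genes 5 fell and 0 rose, among them the sarcosine oxidase PIPOX, from 10.81, 10.89 and 10.54 to 8.89, 8.84 and 8.75, the lysine enzyme AASS (-1.66) and the cystine carrier SLC7A11 (-1.42). Of 28 sterol and fatty acid genes PLAAT3 (-1.77), FADS3 (-1.42) and ABCA1 (-1.26) fell and the lipase LIPG rose (2.41).

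Genes of DNA replication and mitosis stood near control, with a median of 0.01 over 43. PCLAF, a PCNA partner, rose by 2.99 in the probe set used and by 1.26 in the other. CDCA7L fell by 1.68, HUS1, of the DNA damage clamp, by 1.10, TUBE1 by 1.09 and WDHD1 by 1.00. MCM7 (0.06) and PLK1 (0.15) were not called. Of 22 p53 targets 1 rose, BMF (1.17).

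The array also held 164 microRNA precursors with a probe set of their own. It reads the precursor or host transcript and not the mature microRNA. Of these, 1 fell (MIR31) and 0 rose, and the adjusted p alone was passed by MIR9-1 and MIR21 upwards and by MIR31 and MIR96 downwards. Over all genes 0.826% fell and 1.15% rose, and 6.76% passed the adjusted p alone upwards and 5.90% downwards. The precursors named here and their hosts were chosen after their values were seen. The mature forms of the pair with a called host transcript are printed from RefSeq (GRCh38.p14, minus strand) with the seed, bases 2 to 8, in capitals. They lie at chr9:21512158-21512178 (miR-31-5p), chr1:156420392-156420414 (miR-9-5p) and chr1:156420354-156420375 (miR-9-3p).

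hsa-miR-31-5p: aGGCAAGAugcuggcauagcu

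hsa-miR-9-5p: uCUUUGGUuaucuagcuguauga

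hsa-miR-9-3p: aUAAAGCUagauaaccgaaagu

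No seed is shared between them. MIR31 stood at 7.92, 7.56 and 8.53 on the control arrays and at 6.74, 6.45 and 6.62 on the siSOX2 arrays, a change of -1.40 ± 0.184 (SE; limma adjusted p = 3.48e-05). Its host MIR31HG fell by 1.77, from 8.49, 8.62 and 7.76 to 6.66, 6.45 and 6.46. On control replicate 3 the precursor was at its highest and the host at its lowest. MIR9-1HG rose by 1.51, from 6.55, 6.23 and 6.25 to 7.72, 8.08 and 7.77, and the precursor MIR9-1 it contains went from 5.18, 4.75 and 5.09 to 6.00, 5.96 and 6.04, a change of 0.9989 that misses 2-fold. Each precursor overlaps its host in the reference, so their signals are not separate evidence. MIR21 changed by 0.73 and MIR96 by -0.47.

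Some called genes are neighbours in the reference gene order. UTF1 (-1.28) and VENTX (-1.32), both pluripotency genes, fell side by side, as did PTPRZ1 (-1.24) and AASS (-1.66), and IGFBP4 (1.51) and TNS4 (3.03) rose side by side. EMP1 rose by 1.62 while the non-coding LINC01559 next to it fell by 1.48. Among protein-coding genes alone, an order looked at after the values were seen, CLEC6A and CLEC4D, CA12 and USP3, and RGS4 (-1.69) and RGS5 (1.24) were neighbours too.

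The response was set against that of NTera-2 to see where it was particular to 2102Ep. SOX2 RNA fell less in NTera-2 on the arrays (-0.64), although the study's Western blot found no SOX2 protein after siSOX2 in either line. The reagent, siRNA dose and passage range differed too. Line, passage, reagent, dose and depth of the RNA knock-down therefore cannot be told apart. The knock-downs share no array. In NTera-2 121 genes were called, 0.657% of all, of which 57 rose (0.310%) and 64 fell (0.348%). Of the 212 genes that rose in 2102Ep 175 (82.5%) had a change of the same sign in NTera-2, and of the 152 that fell 117 (77.0%), against 60.5% of all genes. Called in both lines but in opposite directions were CALB1, which rose in NTera-2 (1.25), and DUSP6 (-1.67), NTS (-1.26) and NRP1 (-1.15), which fell there. The median change in NTera-2 was 0.32 for the 212 genes that rose in 2102Ep and -0.34 for the 152 that fell. Across all genes the difference between the responses, tested within the same fit, was called for 305 (1.66%), 182 higher (0.989%) and 123 lower (0.668%) in 2102Ep. Of the genes called in 2102Ep it was called for 129 rises, all higher, and among falls for 77 lower and 3 higher, counts that their choice by the 2102Ep change raises.

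The largest differences were those of MSGN1 (4.14), which changed by 0.14 in NTera-2, LGR5 (3.66), CST1 (3.15), RHOBTB3 (3.09) and TNS4 (2.98). RHOBTB3 stood at 5.92, 6.00 and 5.74 in 2102Ep control cells and 8.95, 9.01 and 9.27 after siSOX2, and changed by 0.10 in NTera-2. On the other side stood DPPA5 (-2.91), IL13RA2 (-2.70), ITPRID1 (-2.55), SOX2 (-2.49) and calbindin (CALB1, -2.39). Mean signals of DPPA5 (5.88), IL13RA2 (3.58) and ITPRID1 (5.37) in NTera-2 control cells were already low. They lay below the means after siSOX2 in 2102Ep (7.93, 4.31 and 6.87). The part of this lower starting level in the differences was not tested. The fall of CALB1 in 2102Ep was under 2-fold without control replicate 2 (-0.8915). For EDIL3, GAD1 and TLR4 the difference was not called. Its 95% interval ran from -1.05 to 0.12 for EDIL3, from -0.35 to 0.42 for GAD1 and from -0.38 to 0.44 for TLR4. Of the genes that fell in 2102Ep, 3 fell further in NTera-2 by a called difference, SHISA3 (-2.83), AK4 (-2.99) and TMT1A (-2.64). For AK4 the size of the fall in 2102Ep depended on the probe set.

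**Figure D5:**
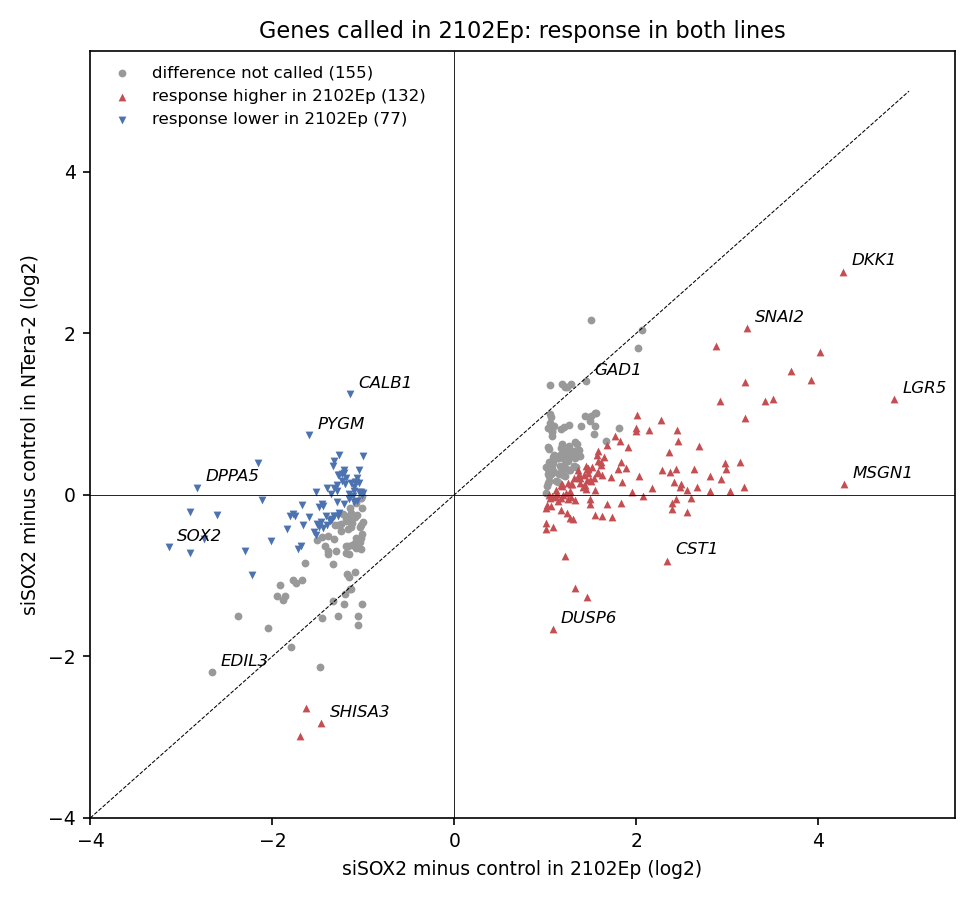
Change after siSOX2 in NTera-2 (vertical axis, log2) against that in 2102Ep (horizontal axis, log2) for the 364 genes called in 2102Ep. Triangles mark a called difference between the lines, and the dashed line marks equal change. The 129 rises with a called difference lie below the line.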

How the data were processed

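RNA of 12 samples was measured on Affymetrix Human Gene 1.0 ST arrays. The deposited table gives a log2 signal for each probe set, made by the authors with robust multi-array averaging. The log base was read from the range (1.57 to 14.98), and no source used here gives the software version. The submitters' processing notes name limma, with no version. Of 32321 probe sets, 19158 carried 1 gene in the platform annotation and the rest were not named. For 637 of 18404 genes with several, the brightest probe set on average was taken. Symbols were updated for 18376 genes through RefSeq (GRCh38.p14).

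All 12 arrays were fitted together with limma 3.58.1 (R 4.3.3, data.table, 1.17.8) with a mean per group. Contrasts were siSOX2 minus control in 2102Ep, and that minus the same in NTera-2. Calls were made at 0.05 after Benjamini-Hochberg adjustment over all genes, with at least 2-fold. The procedure was tested on simulated data. The median SE in 2102Ep was 0.121. The number of arrays (3 a group) limits the precision, and 1 gene alone could not pass an exact permutation test. Medians of the 2102Ep arrays over probe sets ran from 7.447 to 7.559.

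The lists, the named genes and the comparison itself were chosen with earlier results of these data known. Named were SOX2, the 15 largest called rises and falls with arrays that did not overlap, up to 6 called members a list each way and 3 bright members not called, the 8 largest differences between lines each way, genes at the 2-fold limit and called neighbours. Not all are printed, and called members beyond these are printed as examples. Alternatives were the replicate block, 6 arrays only, no dim genes, other scalings, moderation, thresholds and probe set rules, and leaving out arrays. Plots were drawn with matplotlib 3.10.9 under Python 3.11.15.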

Additional observations from a re-analysis of the deposited data

Results flagged for a closer look

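The response to siSOX2 differed between 2102Ep and NTera-2, by limma's test of the difference itself, for 305 genes. Among those called in 2102Ep, the largest differences in log2 change (2102Ep minus NTera-2) were 4.1448 for MSGN1, 3.6557 for LGR5, 3.1495 for CST1, 3.0871 for RHOBTB3, 2.9826 for TNS4, 2.7683 for SLPI, 2.7656 for USP3 and 2.7473 for DUSP6 on the positive side. On the negative side they were -2.9136 for DPPA5, -2.6959 for IL13RA2, -2.5541 for ITPRID1, -2.4904 for SOX2, -2.3903 for CALB1, -2.3618 for NPY1R, -2.3293 for PYGM and -2.2057 for CLEC4D. Of these, DUSP6 and CALB1 were called in opposite directions in the lines. DPPA5, IL13RA2, ITPRID1, CALB1 and NPY1R had a lower mean in NTera-2 control cells than in 2102Ep after siSOX2, and CLEC4D did not. The arrays also hold 13163 probe sets of several genes or of none, which the comparisons leave out. Of these, 28 rose and 48 fell in 2102Ep by the same call rule.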

How the results depend on the processing

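The fall of SOX2 stayed between -3.2402 and -2.9906 with each array left out. Leaving out each 2102Ep array in turn gave 211 to 238 rises and 134 to 180 falls in 2102Ep, and for the difference between lines 178 to 203 higher and 110 to 147 lower. With no fold threshold 1245 genes rose and 1085 fell, and 466 and 491 differences were called. Without genes below the median signal the counts were 117 and 95, and 100 and 66 for the difference, fewer genes being tested. With limma's treat against 1.5-fold the difference was called for 89 and 33. Without control replicates 2 and 3, added after seeing the data, the falls (199) outnumbered the rises (197), and 165 and 169 differences were called. The lone control was assumed to vary like the other groups. The other settings kept these counts within 1.5 times, and no named call changed sign. Of 184 called named genes, 165 were still called with treat and 168 to 182 without 1 array. The replicate number as a block gave 212 rises, 153 falls and 184 and 123 differences. Deviations of same-numbered arrays correlated at 0.065, 0.179 and 0.128, and not every array correlated best with its own number, so the numbers are not shown to pair the samples.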
